A study of Mus musculus with 9 samples.

Results

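The expression of 10 retroviral restriction and RNA-editing factors (Samhd1, Bst2, Apobec3, Isg20, Eif2ak2, Adar, Zc3hav1, Mov10, Rsad2 and Mx1) was compared between mouse leukemia cell lines with and without Stat5a or Stat5b. The genes were taken by name as interferon-inducible factors that act on retroviruses, retroelements or double-stranded RNA, out of 50686 genes in the count tables, and all 10 passed the filter on low counts that left 13852 tested genes. The libraries were poly(A) RNA-seq of BCR/ABLp185+ lines, which are bone marrow cells of C57BL/6N background transformed with the BCR/ABL oncogene of acute lymphoblastic leukemia. The 3 groups were wt, Stat5a-/- (the gene for STAT5A knocked out) and Stat5b-/- (the gene for STAT5B knocked out), and BCR/ABLp185 was common to all of them. Each genotype was 1 cell line with 3 technical replicates, 9 libraries in all, so that every p-value below measures the spread between libraries of a line, and genotype cannot be told apart from other differences between the lines.

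Restriction factors are host proteins that block a step in the life of a retrovirus or of an endogenous retroelement, from reverse transcription in the cytoplasm to the release of particles from the cell surface. Many are induced by type I interferon, whose receptor activates the transcription factor complex ISGF3, to which STAT2 and IRF9 belong. ISGF3 binds the interferon-stimulated response element (ISRE) in promoters, whereas STAT dimers, STAT5 included, bind the shorter gamma-activated sequence (GAS). RNA-editing factors belong to the same response: ADAR1 turns adenosine into inosine in double-stranded RNA, which keeps the cell's own RNA from being sensed as foreign, and APOBEC3 deaminates cytidine in viral DNA made by reverse transcription.

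RefSeq promoters on GRCm38.p6, each running from 250 bases before to 50 bases after an annotated start, were held for 9 members in 15 windows, with Mx1 as the remaining member. The ISRE core was searched as TTTCNNTTTC and GAS as TTCNNNGAA, on both strands. Only exact matches were counted, so that near matches were left out. A window of Adar, for example, holds gaaagtgaac, which differs from the reverse complement of the ISRE core only in its last base. The ISRE core occurred in a promoter of 4 of the 9 members, Bst2, Apobec3, Eif2ak2 and Rsad2, and in 3.86% of the 9444 tested genes that had a promoter in the table. The match stood at the following places, each printed 5′ to 3′ on the strand of its gene with 10 flanking bases on either side and the core in capitals, shown as its reverse complement where it lies on the other strand. These are shown because the 4 genes that hold the same element did not change alike.
Bst2, chr8:71537577-71537612, minus strand, with overlapping cores that begin 130 and 124 bases before the start: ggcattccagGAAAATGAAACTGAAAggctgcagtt
Apobec3, chr15:79892258-79892287, plus strand, 140 bases before the start: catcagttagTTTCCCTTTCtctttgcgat
Eif2ak2, chr17:78882535-78882564, minus strand, from base 19 after the start: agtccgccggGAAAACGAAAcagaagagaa
Rsad2, chr12:26456553-26456582, minus strand, 120 bases before the start: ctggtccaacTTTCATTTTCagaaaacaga
The 250 bases before the start are given for Rsad2, the member with the largest rise in Stat5b-/-, and Bst2, the member with the largest fall, with the ISRE core in capitals.
Rsad2, chr12:26456453-26456702, minus strand: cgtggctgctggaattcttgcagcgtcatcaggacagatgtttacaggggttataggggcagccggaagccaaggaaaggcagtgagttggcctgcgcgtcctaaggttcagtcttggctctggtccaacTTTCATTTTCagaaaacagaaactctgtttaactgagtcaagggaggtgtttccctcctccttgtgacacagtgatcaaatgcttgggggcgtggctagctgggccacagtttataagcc
Bst2, chr8:71537473-71537722, minus strand: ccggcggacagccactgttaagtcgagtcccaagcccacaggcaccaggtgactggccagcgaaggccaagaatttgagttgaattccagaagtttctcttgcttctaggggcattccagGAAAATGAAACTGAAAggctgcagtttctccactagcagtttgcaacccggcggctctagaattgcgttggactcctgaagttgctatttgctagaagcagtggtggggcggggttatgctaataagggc
The GAS letters were found in a promoter of 5 of the 9 members, Samhd1, Bst2, Isg20, Eif2ak2 and Adar, and in 8.30% of the 9444 genes. In Bst2 they began 136 bases before the start and so ran into the ISRE core. A match of letters describes the sequence only, and binding was not measured in the libraries.

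**Figure D1:**
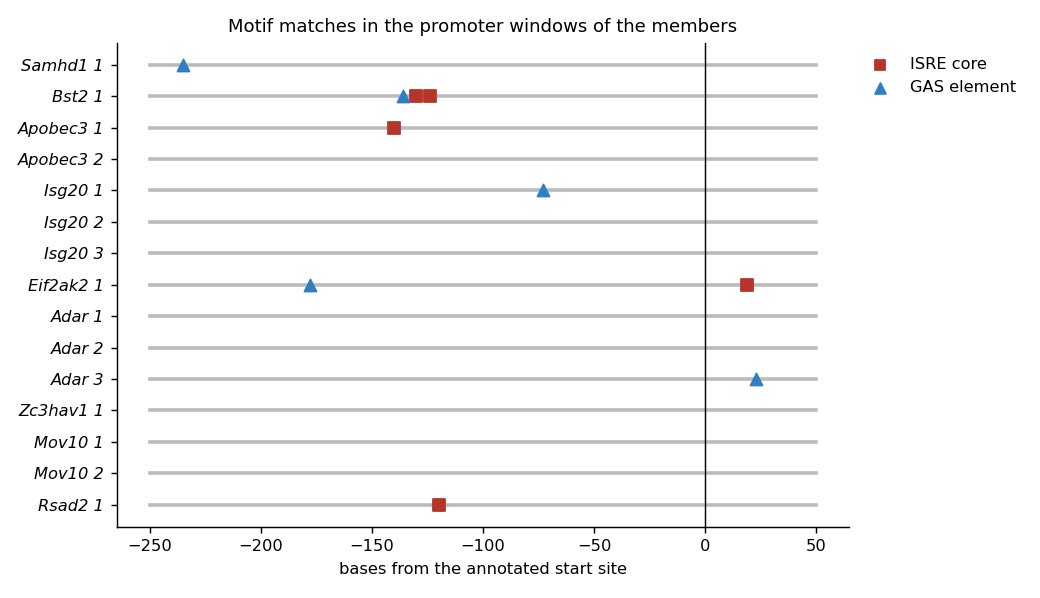
Positions of the ISRE core and GAS letters in the RefSeq promoter windows of 9 members, in bases from the annotated start (x axis, from 250 before to 50 after), with 1 line per window. Squares mark the first base of the ISRE core and triangles that of GAS. The ISRE core lies in windows of Bst2, Apobec3, Eif2ak2 and Rsad2, within 140 bases before the start or just after it.

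Library totals ran from 11948136 to 19016396 counted reads, and values are given as normalized CPM, the counted reads per 1000000 after scaling between libraries. Stat5a was lower in the Stat5a-/- line (11.8, 11.9 and 13.6 CPM against 48.2, 36.0 and 45.3 in wt) and Stat5b in the Stat5b-/- line (72.3, 58.5 and 59.5 CPM against 107, 103 and 106 in wt), so that reads of each targeted gene remained. The gene that was not targeted lay above every wt library in each line. Stat5a had 87.1, 91.7 and 72.2 CPM in Stat5b-/-, and Stat5b had 145, 124 and 156 CPM in Stat5a-/-. The free-text description of the knockout libraries calls them wt, and the titles and genotype labels were followed. The 13 B-lineage markers summed to 4965 to 5302 CPM in wt, 6828 to 7548 in Stat5a-/- and 5851 to 6698 in Stat5b-/- libraries, with 7 higher and 4 lower in Stat5b-/- and 7 higher and 2 lower in Stat5a-/- against wt, beside 46.2% and 36.0% of all tested genes called in either direction. Among the lower ones, Rag1 had 63.4 to 67.1 CPM in wt and at most 0.838 in a knockout library, and Rag2 had 29.6 to 37.6 CPM in wt and at most 1.09. The 17 T-cell markers summed to 893 to 1213 CPM in wt, 1564 to 1812 in Stat5a-/- and 2015 to 2852 in Stat5b-/- libraries, and none of the 17 was at 0. In Stat5b-/- against wt 16 of the 17 were higher at an adjusted p under 0.05 and none was lower (median log2 fold change 1.14), and in Stat5a-/- against wt 9 were higher and none was lower (median 0.44), where 24.2% and 19.8% of all tested genes were higher. The 10 myeloid markers summed to 4.10 to 6.51 CPM in wt, 4.80 to 6.43 in Stat5a-/- and 9.50 to 10.7 in Stat5b-/- libraries, and both that were tested, Csf1r and Lyz2, were higher in Stat5b-/- than in wt (log2 fold changes 1.09 and 1.07). The 6 NK-cell markers summed to 24.8 to 37.1 CPM in wt, 25.0 to 32.3 in Stat5a-/- and 32.5 to 55.1 in Stat5b-/- libraries, with 3 of the 4 tested higher and 1 lower in Stat5b-/- against wt, and Ncr1 was under 1 CPM in every library. The T-cell markers moved in the same order of lines as several members below, and the summed myeloid and NK-cell markers had their highest medians in Stat5b-/-, although the NK-cell ranges of wt and Stat5b-/- overlapped. Within Stat5b-/-, replicate 2 was lowest for most T-cell markers, such as Cd3e (377, 265 and 366 CPM), but not for Zap70 (42.0, 40.3 and 38.1). Replicate 2 was also lowest there for Samhd1, Rsad2 and Mx1, but not for Adar, Apobec3 or Bst2. The 6 erythroid markers summed to 11.3 to 13.7 CPM in wt, 11.7 to 14.5 in Stat5a-/- and 2.54 to 3.58 in Stat5b-/- libraries, the order of lines seen for Bst2, and both that were tested, Hbb-bt and Klf1, were lower in Stat5b-/- than in wt. The part of these markers in the results was not tested. In such bulk RNA, fewer cells of a type and less RNA per cell cannot be told apart.

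Apobec3 had by far the most reads of the 10 genes, and Rsad2 and Mx1 the fewest. Per kilobase of exon, the wt line held Apobec3 at 110.7 ± 3.51 CPM per kb (SD, n = 3), followed by Bst2 at 32.2 ± 4.29 and Zc3hav1 at 30.2 ± 0.655, whose libraries overlapped. Samhd1 (14.7 ± 1.69) and Mov10 (10.0 ± 0.969) came next and stood apart from their neighbours in the order. Isg20 (6.26 ± 1.00), Eif2ak2 (5.47 ± 0.617) and Adar (5.47 ± 0.271) overlapped with each other, and Mx1 (0.336 ± 0.0866) and Rsad2 (0.199 ± 0.0328 CPM per kb) were lowest. The order of the Stat5a-/- line differed mainly in Mov10, which fell from rank 5 to rank 8 with 4.70 ± 0.558 CPM per kb. In the Stat5b-/- line Bst2 stood at rank 4, with 15.2 ± 1.15 CPM per kb, behind Zc3hav1 (39.7 ± 0.759) and Samhd1 (19.7 ± 4.68), the last of which it overlapped. The reads of all 10 genes together came to 1152 to 1206 CPM in wt, 1293 to 1411 in Stat5a-/- and 1488 to 1541 in Stat5b-/- libraries, and Apobec3 alone made up between 54.5% and 62.0% of this sum in a library.

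**Figure D2:**
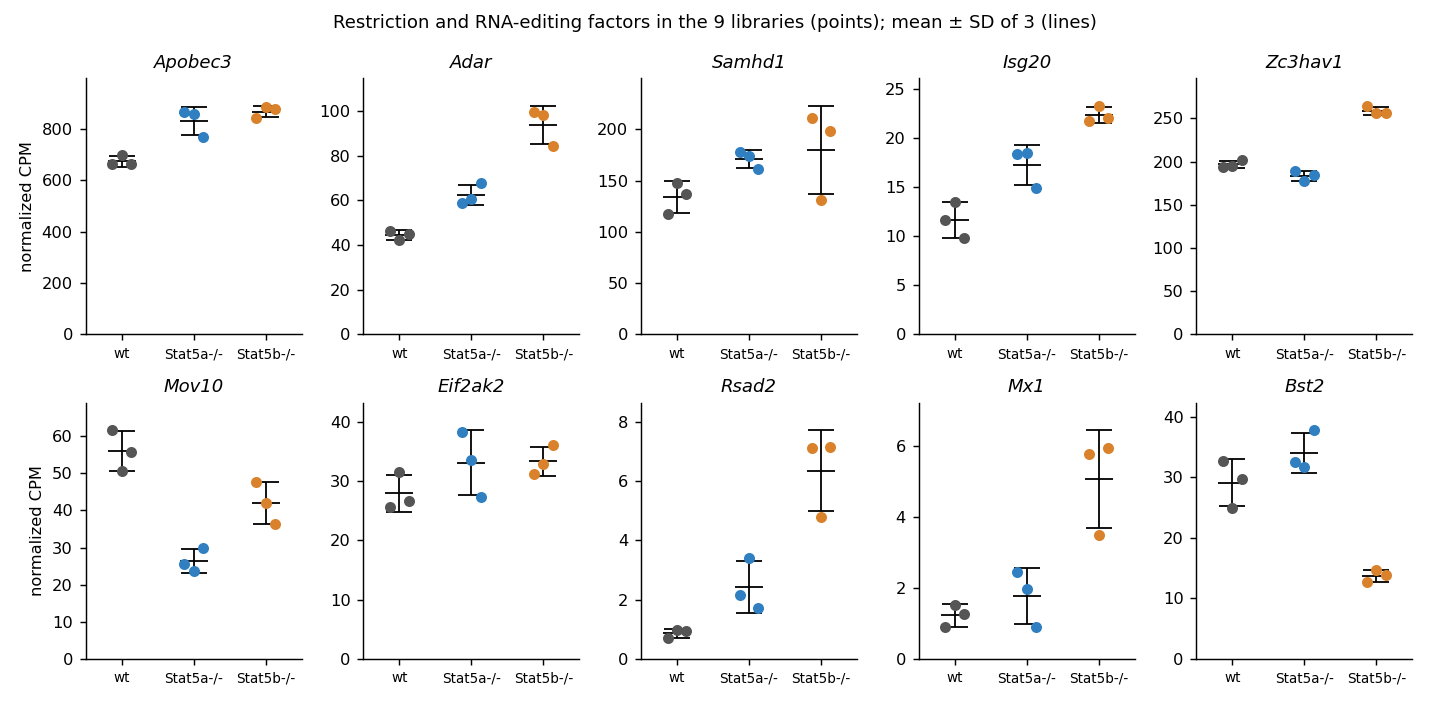
Normalized CPM (y axis, linear and from 0) of the 10 members in the wt, Stat5a-/- and Stat5b-/- lines, with a point per library and the mean ± SD (n = 3) of each line. Rsad2, Mx1 and Adar were highest in Stat5b-/-, Bst2 was lowest there, and Mov10 was lowest in Stat5a-/-.

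In Stat5b-/- against wt, 7 of the 10 members were higher and 2 were lower at an adjusted p under 0.05, and Eif2ak2 did not pass. Over all 13852 tested genes 46.2% passed by the same rule, 24.2% higher and 22.0% lower. The median log2 fold change of the members was 0.41, beside 0.02 over all tested genes. With a fold change above 2 asked for as well, Rsad2, Mx1 and Adar were higher and Bst2 was lower, where 19.1% of all tested genes passed both limits, 10.6% higher and 8.44% lower. Bst2 no longer passed the fold limit without wt replicate 1, and in a test against a fold of 2 itself Rsad2 and Mx1 passed and Adar and Bst2 did not. The Stat5b-/- libraries all lay above every wt library for 6 members and below for 2, and in all 54.2% of tested genes had libraries that did not overlap in this comparison. In Stat5a-/- against wt 4 members were higher (Rsad2, Isg20, Adar and Apobec3), 1 was lower (Mov10) and 5 did not pass, where 36.0% of all tested genes passed, 19.8% higher and 16.3% lower. The Stat5a-/- libraries lay above every wt library for 5 members and below for 2, beside 49.2% of all tested genes without overlap. The members' median log2 fold change was 0.33 there, and 0.0099 over all tested genes. Past both limits were Rsad2 upward and Mov10 downward, beside 7.75% and 6.49% of all tested genes (14.2% in all). Both comparisons share the wt libraries, so their values are not independent of each other. Stat5b-/- against Stat5a-/- gave 5 members higher (Rsad2, Mx1, Adar, Zc3hav1 and Mov10), 1 lower (Bst2) and 4 that did not pass, where 33.9% of all tested genes passed, 16.4% higher and 17.5% lower. The libraries of these lines did not overlap for 7 members, beside 44.8% of all tested genes. Rsad2 and Mx1 upward and Bst2 downward passed both limits there, beside 4.81% and 6.60% of all tested genes (11.4% in all). In the test against a fold of 2 itself (edgeR glmTreat), 0 members passed in Stat5a-/- against wt and 0 in Stat5b-/- against Stat5a-/-, while at an unadjusted p under 0.05 Rsad2 passed in the former and Rsad2, Mx1 and Bst2 in the latter.

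**Figure D3:**
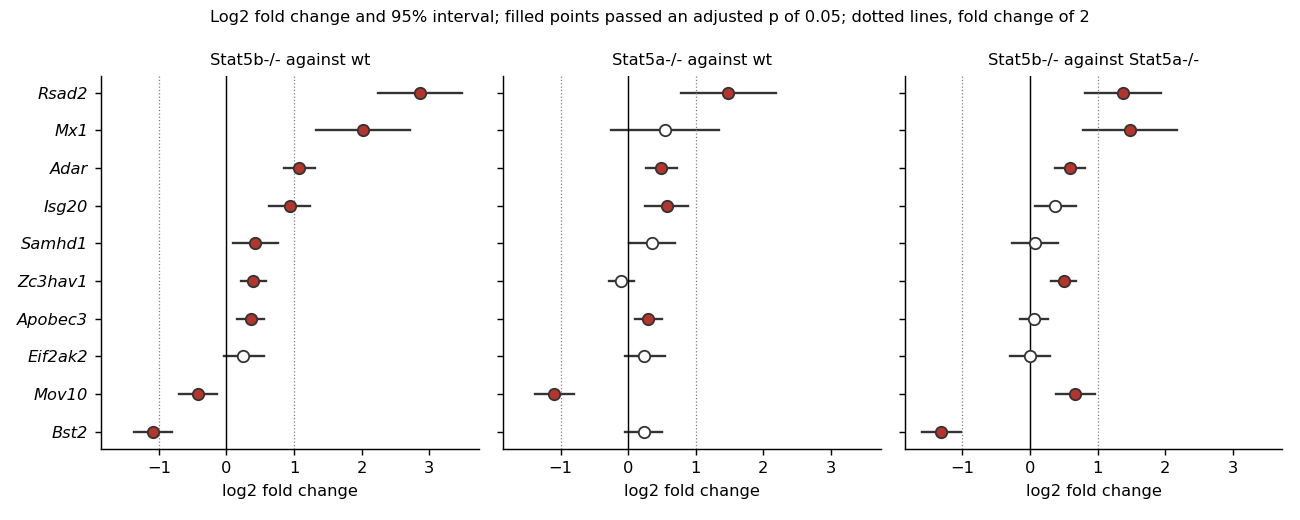
Log2 fold change (x axis) of each member in the 3 comparisons, with 95% confidence intervals from edgeR and filled points where the adjusted p was under 0.05. Rsad2 and Mx1 lie furthest to the right in Stat5b-/- against wt (2.86 and 2.02), and Bst2 (-1.08) and Mov10 (-0.42) lie to the left.

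The members that the cell uses against incoming or newly made retroviral DNA are Samhd1 and Apobec3. SAMHD1 breaks down deoxynucleoside triphosphates and so starves reverse transcriptase. Samhd1 (ENSMUSG00000027639.16, chr2:157097533-157135265, minus strand) had 118, 148 and 137 CPM in wt, 178, 174 and 162 in Stat5a-/- and 211, 131 and 198 in Stat5b-/- libraries. The 3 Stat5a-/- libraries were all above wt, whereas replicate 2 of Stat5b-/- lay inside the wt range. That library was also the lowest of its line for most T-cell markers, and a link between them was not tested. The log2 fold change was 0.42 (standard error 0.15, adjusted p = 0.0393) in Stat5b-/- against wt, and 0.35 in Stat5a-/- against wt (adjusted p = 0.0974, 95% confidence interval 0.01 to 0.69, not adjusted). The Stat5b-/- call was lost in 9 of the alternative fits, RLE normalization (adjusted p = 0.0503) and the fit without Stat5b-/- replicate 1 (log2 fold change 0.27, adjusted p = 0.199) among them. The Stat5a-/- difference passed in 4 of them, without the filter on low counts (adjusted p = 0.0365), with wt and Stat5a-/- alone in the fit (0.0227), without Stat5b-/- replicate 2 (0.0258) and with an offset for GC content (0.0469).

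APOBEC3 is packaged into virus particles and mutates the complementary DNA of the next round of infection. Apobec3 (ENSMUSG00000009585.17, chr15:79891659-79915906, plus strand) had 661, 698 and 661 CPM in wt, 866, 857 and 767 in Stat5a-/- and 841, 882 and 875 in Stat5b-/- libraries. Every knockout library was above every wt library, and the knockout lines overlapped. The gene was 1.29-fold higher in Stat5b-/- than in wt (log2 fold change 0.36, standard error 0.09, adjusted p = 0.00616) and 1.23-fold higher in Stat5a-/- (0.30, standard error 0.09, adjusted p = 0.0219). Between the knockout lines the difference was 0.06, with an interval of -0.14 to 0.26. The Stat5a-/- call was lost without wt replicate 1 (adjusted p = 0.0626) or 3 (0.0904), without Stat5a-/- replicate 1 (0.111) or 2 (0.0866), and without the filter on low counts (0.0662), in each case with a log2 fold change of at least 0.25.

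Of the deaminases related to Apobec3 and Adar, 7 of 12 were tested, and none was higher in either knockout line than in wt, where 24.2% and 19.8% of all tested genes were. In Stat5b-/- against wt 4 of the 7 were lower and in Stat5a-/- against wt 3 were lower (medians -0.29 and -0.27), beside 22.0% and 16.3% of all tested genes. The count of 4 was 2 without Stat5b-/- replicate 3 or without the filter on low counts, and 3 or 4 without each of the other libraries. Adarb1, which encodes the editing enzyme ADAR2, had 128, 145 and 157 reads in the wt libraries, but 1, 1 and 4 in Stat5a-/- and 1, 1 and 2 in Stat5b-/- libraries. The fitted log2 fold changes were -6.31 in Stat5b-/- (adjusted p = 2.34e-08) and -5.60 in Stat5a-/- (adjusted p = 5.18e-08), and at so few reads their size depends on the prior count of the fit. Adarb1 was thus near 0 in both knockout lines, in which Adar was higher than in wt. Apobec1, the cytidine deaminase that edits apolipoprotein B mRNA, was lower in Stat5a-/- (-0.76, adjusted p = 1.17e-04) and in Stat5b-/- (-0.29, adjusted p = 0.0431), and was the deaminase that differed between the knockout lines (0.47 in Stat5b-/- against Stat5a-/-, adjusted p = 0.00587).

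Among 14 genes that make or turn over deoxynucleotides, the substrate of SAMHD1, 4 were higher and 3 lower in Stat5b-/- against wt, and 4 were higher and 4 lower in Stat5a-/- against wt. In Stat5b-/- this is near the 46.2% called among all tested genes, and in Stat5a-/- the share of all tested genes was 36.0%. Dguok, the mitochondrial deoxyguanosine kinase, rose most (1.54 in Stat5b-/-, adjusted p = 2.35e-07, and 1.14 in Stat5a-/-, adjusted p = 4.95e-06). Tyms, the thymidylate synthase, was also higher in both (1.17, adjusted p = 3.76e-06, and 0.54, adjusted p = 0.0028), and Dctd, which deaminates deoxycytidylate, was lower in both (-1.01, adjusted p = 1.79e-06, and -0.46, adjusted p = 0.00153).

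The factors that act on RNA in the cytoplasm are Zc3hav1, Mov10, Isg20, Eif2ak2 and Adar. ZAP, the product of Zc3hav1, binds CpG-rich viral RNA and brings in the decay machinery. Zc3hav1 (ENSMUSG00000029826.14, chr6:38305286-38354603, minus strand) had 194, 195 and 202 CPM in wt, 189, 177 and 185 in Stat5a-/- and 264, 256 and 256 in Stat5b-/- libraries. The Stat5b-/- libraries were above all others, and the Stat5a-/- libraries all lay just below wt. It was 1.31-fold higher in Stat5b-/- than in wt (log2 fold change 0.39, standard error 0.08, adjusted p = 0.00192) and 1.41-fold higher than in Stat5a-/- (0.50, standard error 0.08, adjusted p = 5.94e-04), while Stat5a-/- against wt gave -0.10 (adjusted p = 0.383, interval -0.28 to 0.08).

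MOV10 is an RNA helicase that enters retroviral particles and also restrains LINE-1 elements. Mov10 (ENSMUSG00000002227.15, chr3:104794836-104818563, minus strand) had 61.6, 50.8 and 55.8 CPM in wt, 25.5, 23.8 and 29.8 in Stat5a-/- and 47.7, 42.0 and 36.3 in Stat5b-/- libraries. The 3 lines did not overlap, with wt highest and Stat5a-/- lowest. Relative to wt it was 2.13-fold lower in Stat5a-/- (log2 fold change -1.09, standard error 0.13, adjusted p = 2.44e-05) and 1.33-fold lower in Stat5b-/- (-0.42, standard error 0.13, adjusted p = 0.0184). Between the knockout lines the difference was 0.67 (standard error 0.13, adjusted p = 0.00183). Leaving out wt replicate 1 (adjusted p = 0.0702), wt replicate 3 (0.0502), Stat5b-/- replicate 2 (0.0508) or Stat5b-/- replicate 3 (0.0684) ended the call in Stat5b-/- against wt, with a log2 fold change between -0.42 and -0.32.

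Of 16 tested partners of ZAP and MOV10 in RNA decay, 8 were higher and none was lower in Stat5b-/- against wt, with a median log2 fold change of 0.23 and none past a fold of 2, where 24.2% of all tested genes were higher, 22.0% were lower and 46.2% were called in all. Among them were Zc3h12a, the endonuclease Regnase (0.56, adjusted p = 0.00287), Trim25, the ubiquitin ligase that ZAP needs (0.54, adjusted p = 0.00133), Khnyn, a nuclease that works with ZAP (0.50, adjusted p = 0.00775), and Tnrc6c, a partner of Argonaute (0.45, adjusted p = 0.0119). Fewer than 8 passed in every fit with a library left out, with 5 without wt replicate 1 or Stat5b-/- replicate 1 and 6 or 7 without any other library, and 5 passed without the filter on low counts. In Stat5a-/- against wt 4 were higher and 2 lower (median 0.0041), about the share of all tested genes (19.8% higher and 16.3% lower, 36.0% in all), and the 4 became 2 without Stat5a-/- replicate 3. The lower count was 1 without any wt library, Stat5a-/- replicate 1 or 2, or Stat5b-/- replicate 2. Trim25 was higher there as well (0.67, adjusted p = 3.26e-04), and Zc3hav1l, a paralog of Zc3hav1, was lower in Stat5a-/- (-0.50, adjusted p = 0.00403) and higher in Stat5b-/- (0.32, adjusted p = 0.0328) than in wt.

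ISG20 is an exonuclease that degrades single-stranded RNA. Isg20 (ENSMUSG00000039236.18, chr7:78913424-78920396, plus strand) had 11.7, 13.5 and 9.76 CPM in wt, 18.3, 18.5 and 14.9 in Stat5a-/- and 21.7, 23.2 and 22.0 in Stat5b-/- libraries. The 3 lines did not overlap, in the order wt, Stat5a-/- and Stat5b-/-. It was 1.91-fold higher in Stat5b-/- than in wt (log2 fold change 0.94, standard error 0.14, adjusted p = 1.37e-04) and 1.48-fold higher in Stat5a-/- (0.57, standard error 0.14, adjusted p = 0.00749). The difference between the knockout lines, 0.37, missed the threshold (adjusted p = 0.0588, interval 0.07 to 0.68, not adjusted). With an offset for the GC content of each gene, that difference passed (0.46, adjusted p = 0.0431) and the rise in Stat5a-/- did not (0.42, adjusted p = 0.0733).

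PKR, the product of Eif2ak2, is a kinase that stops translation when it meets double-stranded RNA. Eif2ak2 (ENSMUSG00000024079.4, chr17:78852564-78882573, minus strand) had 25.7, 31.6 and 26.6 CPM in wt, 38.4, 33.5 and 27.4 in Stat5a-/- and 31.1, 32.9 and 36.0 in Stat5b-/- libraries. The 3 lines overlapped. The log2 fold change was 0.25 in Stat5b-/- (adjusted p = 0.149, interval -0.04 to 0.55) and 0.24 in Stat5a-/- (adjusted p = 0.188, interval -0.05 to 0.54), so that a rise of up to 0.55 lay inside the interval. The Stat5a-/- value was 0.10 without Stat5a-/- replicate 1 and at most 0.34, without wt replicate 2. With the GC offset both passed (0.27, adjusted p = 0.0212, and 0.34, adjusted p = 0.00671). Of 10 other genes around PKR and its substrate eIF2alpha, 3 were lower and none was higher in each knockout line against wt (medians -0.04 and -0.21), except that 1 was higher in Stat5b-/- without wt replicate 2 or Stat5a-/- replicate 3, and that the GC offset gave 1 higher in Stat5b-/- and 2 higher and 5 lower in Stat5a-/-. Among all tested genes 22.0% and 16.3% were lower, and 46.2% and 36.0% were called in either direction, a larger share than the 3 of 10 first given. Ppp1r15a, which encodes GADD34 and restores translation by bringing a phosphatase to eIF2alpha, was lower in Stat5b-/- than in wt (-1.33, adjusted p = 5.93e-06) and than in Stat5a-/- (-1.04, adjusted p = 9.81e-05). Prkra, an activator of PKR, was lower in Stat5a-/- than in wt (-0.65, adjusted p = 0.00648).

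Adar (ENSMUSG00000027951.16, chr3:89715022-89753446, plus strand), the gene of ADAR1, had 46.4, 42.0 and 44.7 CPM in wt, 58.9, 60.5 and 67.5 in Stat5a-/- and 99.3, 98.0 and 84.1 in Stat5b-/- libraries. The lines were fully apart, with wt lowest and Stat5b-/- highest. Adar was 2.11-fold higher in Stat5b-/- than in wt (log2 fold change 1.08, standard error 0.10, adjusted p = 2.51e-06), 1.40-fold higher in Stat5a-/- than in wt (0.49, standard error 0.10, adjusted p = 0.00241) and 1.51-fold higher in Stat5b-/- than in Stat5a-/- (0.59, standard error 0.10, adjusted p = 7.52e-04). The gene has an interferon-inducible start for a long form of the enzyme and a constitutive start for a short form, which counts over the whole gene do not separate. Of the 8118 exon bases of Adar, 16.8% also belong to Chrnb2 on the opposite strand, which had at most 115 reads in a library, and reads in the shared bases were assigned to neither gene, since the counting command in the tables names no option to keep them.

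The product of Bst2, tetherin, holds budding particles at the cell membrane. Bst2 (ENSMUSG00000046718.8, chr8:71534255-71537456, minus strand) had 32.6, 24.9 and 29.7 CPM in wt, 32.5, 31.7 and 37.8 in Stat5a-/- and 12.6, 14.7 and 13.8 in Stat5b-/- libraries. Stat5b-/- lay below both other lines, which overlapped. It was 2.12-fold lower in Stat5b-/- than in wt (log2 fold change -1.08, standard error 0.13, adjusted p = 2.14e-05) and 2.48-fold lower than in Stat5a-/- (-1.31, standard error 0.13, adjusted p = 7.76e-06), while Stat5a-/- against wt gave 0.23 (adjusted p = 0.193, interval -0.05 to 0.50). Bst2 was the only member that passed in the downward direction in both comparisons of Stat5b-/-, and it holds overlapping ISRE cores in the promoter printed above. Tetherin is also a surface marker of plasmacytoid dendritic cells. The 7 markers of these cells summed to 538 to 653 CPM in wt, 324 to 400 in Stat5a-/- and 465 to 521 in Stat5b-/- libraries, a sum that was mostly Irf8 and Tcf4. Of the 6 that were tested, Siglech, Ccr9 and Pacsin1 were higher and Cox6a2 was lower in Stat5b-/- against wt (median log2 fold change 0.39), and in Stat5a-/- against wt none was higher and Cox6a2, Irf8 and Tcf4 were lower (median -0.11), beside 46.2% and 36.0% of all tested genes called. Siglech, the defining receptor of plasmacytoid dendritic cells, had at most 2.47 CPM in a library, that library being of Stat5b-/-. Cox6a2 had 60.4 to 77.7 CPM in wt, 1.40 to 2.36 in Stat5a-/- and 4.34 to 5.28 in Stat5b-/- libraries. The part of these cells in the level of Bst2 was not tested.

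Rsad2 and Mx1 are classical interferon-induced genes. Viperin, the product of Rsad2, makes a nucleotide that ends the chains of viral RNA polymerases. Rsad2 (ENSMUSG00000020641.15, chr12:26442753-26456452, minus strand) had 11, 19 and 16 reads in wt, 31, 42 and 19 in Stat5a-/- and 104, 70 and 94 in Stat5b-/- libraries. As levels these were 0.698, 0.960 and 0.924 CPM in wt, 2.17, 3.42 and 1.71 in Stat5a-/- and 7.13, 4.78 and 7.16 CPM in Stat5b-/-, and the lines did not overlap. Rsad2 was 7.26-fold higher in Stat5b-/- than in wt (log2 fold change 2.86, standard error 0.29, adjusted p = 3.48e-06), 2.79-fold higher in Stat5a-/- than in wt (1.48, standard error 0.32, adjusted p = 0.00269) and 2.60-fold higher in Stat5b-/- than in Stat5a-/- (1.38, standard error 0.26, adjusted p = 0.00124). Even at its highest it remained among the lowest of the 10 genes, with 1.47 ± 0.315 CPM per kb (SD, n = 3) in Stat5b-/-.

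Cmpk2, a mitochondrial nucleotide kinase, is the neighbour of Rsad2 on chromosome 12, with 12751 bases between them and the opposite strand. It had 13, 40 and 33 reads in wt, 175, 107 and 112 in Stat5a-/- and 208, 163 and 157 in Stat5b-/- libraries. The log2 fold change was 2.94 in Stat5b-/- (adjusted p = 8.04e-07) and 2.68 in Stat5a-/- (adjusted p = 2.60e-06), and the difference between the knockout lines was 0.26 (adjusted p = 0.363), where that of Rsad2 was 1.38. Whether the difference in Rsad2 exceeds that in Cmpk2 was not tested.

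MX1 is a dynamin-like GTPase that blocks the replication of orthomyxoviruses, and C57BL/6 mice are known to carry an Mx1 allele with a deletion in its coding sequence. Mx1 (ENSMUSG00000000386.14, chr16:97447035-97462907, minus strand) had 0.888, 1.52 and 1.27 CPM in wt, 2.45, 1.95 and 0.902 in Stat5a-/- and 5.76, 3.49 and 5.94 in Stat5b-/- libraries. All Stat5b-/- libraries were above the rest, and Stat5a-/- overlapped wt. It was 4.05-fold higher in Stat5b-/- than in wt (adjusted p = 2.10e-04) and 2.79-fold higher than in Stat5a-/- (adjusted p = 0.00341), while Stat5a-/- against wt gave a log2 fold change of 0.54 with an interval of -0.26 to 1.34 (adjusted p = 0.285). That value was 0.20 without Stat5a-/- replicate 1 and 0.80 at most, without Stat5a-/- replicate 3. The paralog Mx2, 72400 bases away, had at most 20 reads in a library, and reads that fit both genes equally well would have been dropped in the counting.

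Other factors that act on retroviruses were examined as a list of 24 genes, 23 of them tested. In Stat5b-/- against wt 15 were higher and 2 lower (median log2 fold change 1.28), and in Stat5a-/- against wt 11 were higher and 3 lower (median 0.66), beside 46.2% and 36.0% of all tested genes called in either direction. Ifitm3, which hinders the fusion of viral membranes, was 3.19 higher on the log2 scale in Stat5b-/- (adjusted p = 6.34e-08) and 2.10 in Stat5a-/- (adjusted p = 7.05e-06). Gbp2, a guanylate-binding protein that lowers the infectivity of virions, was higher by 2.86 (adjusted p = 4.16e-09) and 3.44 (adjusted p = 9.28e-10). Ifitm1 had the largest change of the list, with 5.64 in Stat5a-/- (adjusted p = 3.27e-11) and 2.71 in Stat5b-/- (adjusted p = 1.68e-08). March8, a ubiquitin ligase that removes viral envelope proteins from the surface, was lower in Stat5b-/- (-3.11, adjusted p = 3.14e-07) and in Stat5a-/- (-1.61, adjusted p = 4.76e-05). Serinc5, which is built into virions and impairs their entry, was lower in Stat5a-/- than in wt (-1.45, adjusted p = 1.43e-05) and Stat5b-/- exceeded Stat5a-/- by 1.48 (log2 scale, adjusted p = 2.03e-05), with 0.03 in Stat5b-/- against wt (adjusted p = 0.905).

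The pathway that induces most of the members was read from 12 genes of interferon signalling. In Stat5b-/- against wt 10 were higher and 2 lower (median 0.71), and in Stat5a-/- against wt 4 were higher and 2 lower (median 0.26), where 24.2% and 19.8% of all tested genes were higher. Without wt replicate 1, wt replicate 3 or Stat5b-/- replicate 3 the 2 lower calls in Stat5b-/- were lost, and without Stat5b-/- replicate 2 there was 1. In Stat5a-/- the lower count was 1 without any wt library, Stat5a-/- replicate 2 or 3, or Stat5b-/- replicate 2. Irf7, which amplifies the interferon response, was higher in both knockout lines, by 2.34 in Stat5b-/- (adjusted p = 3.61e-08) and 1.02 in Stat5a-/- (adjusted p = 1.28e-04). Irf1, an activator of interferon-stimulated genes, was higher by 1.61 (adjusted p = 2.20e-08) and 0.99 (adjusted p = 2.87e-06). Stat2 was higher by 0.79 (adjusted p = 1.66e-04) and Irf9 by 1.38 (adjusted p = 3.25e-07) in Stat5b-/- against wt, whereas in Stat5a-/- the values were 0.25 (adjusted p = 0.136) and 0.24 (adjusted p = 0.104). Both also differed between the knockout lines, where Stat2 stood 0.54 higher in Stat5b-/- (adjusted p = 0.00468) and Irf9 1.14 (adjusted p = 4.04e-06). Among the members, Mx1 and Zc3hav1 passed in the same 2 comparisons and in the same direction as Stat2 and Irf9, Bst2 passed in the same 2 in the opposite direction, and Rsad2, Adar and Mov10 passed in all 3 comparisons, Mov10 downward against wt.

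Of 19 tested genes that clear or sense nucleic acids, 9 were higher and 2 lower in Stat5b-/- against wt, and 6 were higher and 2 lower in Stat5a-/- against wt (medians 0.19 and 0.36), beside 46.2% and 36.0% of all tested genes called in either direction, with 1 lower in Stat5b-/- without wt replicate 3 or Stat5b-/- replicate 2, and 1 lower in Stat5a-/- without wt replicate 3. Zbp1, a sensor of Z-form nucleic acid that the editing by ADAR1 keeps in check, was higher in Stat5b-/- (2.13, adjusted p = 2.59e-07) and in Stat5a-/- (1.21, adjusted p = 5.88e-05). Cgas, the sensor of cytosolic DNA, was higher in Stat5a-/- (2.89, adjusted p = 2.87e-07) and in Stat5b-/- (2.03, adjusted p = 1.02e-05), and lower in Stat5b-/- than in Stat5a-/- (-0.86, adjusted p = 0.00361). Ifih1, the gene of the double-stranded RNA sensor MDA5, was higher in Stat5b-/- (0.49, adjusted p = 0.0349) and lower in Stat5a-/- (-0.86, adjusted p = 0.00324) than in wt, with 1.35 between the knockout lines (adjusted p = 1.36e-04). Trex1, the DNA exonuclease, was listed with 0 reads in every library, but all of its 1147 exon bases are shared with another gene model, so that this value says nothing of its expression. Of 14 genes listed for the silencing of retroelements, 2 were higher and 3 lower in Stat5b-/- and 1 was higher and 3 lower in Stat5a-/- against wt (medians -0.05 and -0.11), where 46.2% and 36.0% of all tested genes passed in either direction. The largest changes in Stat5b-/- were the rises of Zcchc3 (1.39, adjusted p = 0.0154), which had 4 to 15 reads in a wt library, and Fam208a (0.99, adjusted p = 3.80e-04), a part of the HUSH silencing complex, and the falls of Hells, a chromatin remodeller needed for DNA methylation (-0.91, adjusted p = 4.16e-04), and Morc2a, which works with HUSH (-0.87, adjusted p = 1.22e-05). Without wt replicate 3 or Stat5b-/- replicate 2 the count of higher genes in Stat5b-/- was 1. In Stat5a-/- it was 2 without wt replicate 2, Stat5a-/- replicate 3 or Stat5b-/- replicate 3, and that of lower genes 1 without wt replicate 2 or 3.

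**Figure D4:**
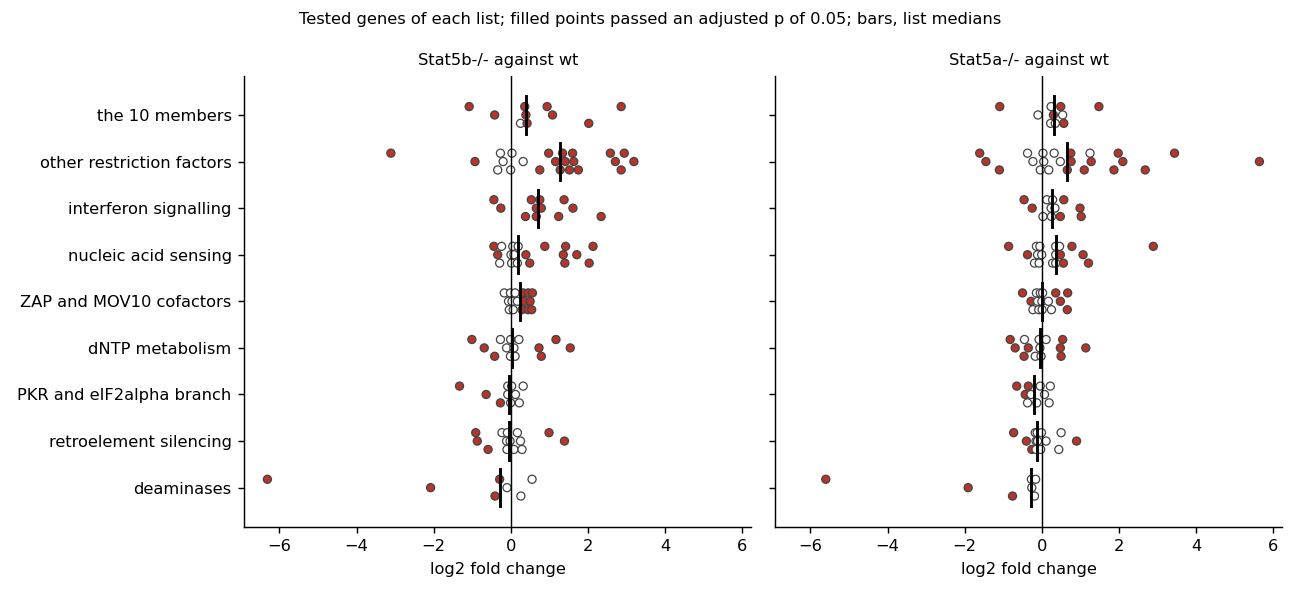
Log2 fold change (x axis) of every tested gene of the 10 members and of 8 related lists in Stat5b-/- and Stat5a-/- against wt, with a point per gene, filled where the adjusted p was under 0.05, and a bar at the list median. The bar of the other restriction factors stands at 1.28 in Stat5b-/- and 0.66 in Stat5a-/-, and the deaminase at the far left is Adarb1 (-6.31 and -5.60).

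The genes whose pattern over the 9 libraries was most like that of each member were found by Pearson's r of log2 CPM. The 9 points fall into 3 lines, share library depth and composition, and give a description only. Rsad2 was most like Thy1 (r = 0.994), which is among the T-cell markers, and Lgals3bp (0.990), which is in the list of other restriction factors. Adar was most like Abl1 (0.996), Nlrc5 (0.995) and Arsb (0.993). The closest genes were Cited2 (0.993) for Bst2, Ptgs1 (0.993) for Mov10 and Dock2 (0.990) for Zc3hav1. Samhd1 reached no more than 0.957 with any tested gene, the lowest of the 10 best matches.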

How the data were processed

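RNA-seq of 9 libraries was analysed. The authors trimmed 50 bp single-end reads with Trimmomatic, mapped them with STAR to GENCODE mouse annotation on GRCm38 and deposited read counts per gene (featureCounts 1.5.1, a version in the file headers), with no normalization. Multimapping reads are dropped by default in that tool. Per the file headers no strand option was set, so that counting was unstranded. Samples were grouped by title. Symbols came from a GENCODE M21 table for 50376 of 50686 genes. Gene positions follow the deposited tables (GRCm38), and promoters follow RefSeq (GRCm38.p6). Proteins were not used here.

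TMM scaling, filterByExpr and the quasi-likelihood F test of edgeR 4.0.16 (R 4.3.3) were applied to all 9 libraries with genotype as the only term, and p-values were adjusted over 13852 genes by the method of Benjamini and Hochberg. A gene was called at an adjusted p under 0.05, and past both limits with a fold change above 2 besides. The standard error of a log2 fold change is its size divided by the root of its F value, and 95% intervals of single genes are not adjusted. Library totals of 11948136 to 19016396 reads leave genes with few reads imprecise. Reads carry no molecular identifiers, so that they are not independent molecules. Counts of libraries of the same line were further apart than sampling alone gives (chi-square per degree of freedom 5.05 to 31.4).

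Named are the 10 members, Stat5a and Stat5b, up to 4 genes per list and comparison with the largest called change, Stat2, Irf9, Mx2, Cmpk2 and partners, a further gene that is not reported here, and the 3 genes most like each member. Trex1 and single marker genes were named after their values were seen. The members and lists were chosen with earlier results of these data known. The lists are described by counts, with no test of their own. Alternatives were DESeq2 1.42.0, RLE normalization, no filter or a minimum mean of 10 counts, a fit on the compared pair of lines alone, each library left out, a replicate block, a loess offset for GC content (span 0.5), both together, and a test against a fold of 2. The fits were tested on simulated counts.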

Additional observations from a re-analysis of the deposited data

How the results depend on the processing

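Of 510 refits of single members, 471 kept direction and side of the threshold, 22 lost the call, 10 gained it and 7 changed sign. The changes of sign were between the knockout lines, in differences near 0. Samhd1 gave -0.06 without Stat5b-/- replicate 1 (-0.06 to 0.26 over the libraries left out), and Eif2ak2 gave -0.0039 with DESeq2, -0.0038 with RLE, -0.10 without Stat5a-/- replicate 3 (-0.10 to 0.13 over the libraries left out), -0.05 without Stat5b-/- replicate 3, and -0.07 with the GC offset, alone or with the replicate block. The cause was not tested. Leaving out 1 library gave 1 to 2 members lower in Stat5b-/- against wt, and 0 to 1 past both limits, with 0 without wt replicate 1. Over all tested genes the same fits gave 2544 to 3423 lower, and 1154 to 1265 lower past both limits. A test against a fold of 2 itself (edgeR glmTreat) gave 0 members lower in Stat5b-/- against wt, 0 higher and 0 lower in Stat5a-/- against wt, and 0 higher and 0 lower in Stat5b-/- against Stat5a-/-. At an unadjusted p under 0.05 it gave 0, 1 and 0, and 2 and 1, and DESeq2 put 1, 1 and 1, and 2 and 1 past both limits. In that test Rsad2 and Mx1 stayed higher in Stat5b-/- than in wt. Deviations of libraries that share a replicate number had a mean r of -0.0877 (9 pairs) and those of other libraries 0.0438 (18 pairs), so the numbers were not used as pairs. With a replicate block, 6 members were higher in Stat5b-/- against wt (7 without) and 3 in Stat5a-/- against wt (4 without). Without the block 24.2% and 19.8% of all tested genes were higher, and their share with the block is not given here. Samhd1 (adjusted p = 0.076) in Stat5b-/- and Apobec3 (adjusted p = 0.0633, and 0.0609 with the GC offset added) in Stat5a-/- lost their calls. Over the related lists, 68 counts moved by more than 1.5 times, most of them counts of a few genes. Libraries of a line differed with gene GC content (r across genes from -0.482 to 0.525), and Rsad2, Mx1 and Mx2 rest on few reads.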
